A study of Mus musculus with 36 samples.

Results

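The Hox cluster genes were taken as every entry of the 6 deposited H3K9me3 tables whose nearest gene, as assigned by the authors, was Hoxa, Hoxb, Hoxc or Hoxd followed by a number. This rule found 529 of 786789 entries, and all 39 mouse Hox genes had an entry in at least 1 table. Over the whole series 22325 gene symbols had one. The entries came from 99 of 156217 peaks in females and 103 of 169602 peaks in males. Each entry is a stretch of a peak of about 500 bp, termed a bin here, and a peak has at most 1 bin in a table.

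Hox genes encode transcription factors with a homeodomain that set the identity of segments along the head-to-tail axis of the embryo. In the mouse they lie in 4 clusters, numbered so that genes with low numbers act in anterior and genes with high numbers in posterior parts of the body. In differentiated cells their silence is best known as the work of Polycomb proteins and H3K27me3, while H3K9me3, the mark measured here, is best known from constitutive heterochromatin, repeats and silenced gene clusters such as zinc finger genes.

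H3K9me3 was profiled by ChIP-seq in liver tissue of mouse offspring at 3 and 8 weeks of age. The dams received a control diet or a Western-style diet before mating, in gestation and in lactation, and offspring of the latter form the maternal obesity (MO) groups. The 8 groups are control and MO, female and male, at 3 or 8 weeks, with 4 libraries each, and 4 input libraries were not used here. Per the study's methods all of these offspring were Reg3g-fl/+ or Reg3g-fl/fl on a C57BL/6J background, the 3-week mice were taken before weaning, and the 8-week mice had eaten chow since weaning. Liver tissue holds several cell types, so a mark in fewer cells and a weaker mark in each cell cannot be told apart.

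Each table covers a pair of groups: control females at both ages, control males at both ages, and MO with control offspring of 1 sex at 1 age (females or males, at 3 or 8 weeks). The level of a bin is the authors' average log2 CPM (read counts scaled to the library total) over the libraries of both groups, so it holds no value per library. The authors' own comparisons were not used, so neither a spread between animals nor a test is given. Levels compared between genes are per kb of bin (the average minus log2 of the bin length in kb). The depth of each library is unknown from these files. Every difference below is a description.

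The sequences of the strongest full-length bin (500 bp or more) of Hoxa, Hoxb and Hoxd show what kind of DNA carried the mark. They are read from GRCm38, plus strand, with every CpG in capitals, and are limited to stretches without a UTR. The Hoxa3 stretch is chr6:52211189-52211488, the Hoxb13 stretch chr11:96177628-96177927 and the Hoxd3 stretch chr2:74740421-74740720.
Hoxa3: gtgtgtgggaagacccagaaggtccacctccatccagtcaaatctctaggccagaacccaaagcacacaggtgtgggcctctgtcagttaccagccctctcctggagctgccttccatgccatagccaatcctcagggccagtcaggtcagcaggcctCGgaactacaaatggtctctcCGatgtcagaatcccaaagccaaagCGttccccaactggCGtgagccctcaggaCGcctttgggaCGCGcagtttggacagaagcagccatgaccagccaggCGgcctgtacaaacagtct
Hoxb13: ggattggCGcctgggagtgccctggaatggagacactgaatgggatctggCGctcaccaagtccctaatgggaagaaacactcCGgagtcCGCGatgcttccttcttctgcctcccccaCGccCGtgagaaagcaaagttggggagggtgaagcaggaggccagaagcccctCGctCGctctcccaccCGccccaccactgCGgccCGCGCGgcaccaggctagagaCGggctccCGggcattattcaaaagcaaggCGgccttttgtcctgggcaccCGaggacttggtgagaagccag
Hoxd3: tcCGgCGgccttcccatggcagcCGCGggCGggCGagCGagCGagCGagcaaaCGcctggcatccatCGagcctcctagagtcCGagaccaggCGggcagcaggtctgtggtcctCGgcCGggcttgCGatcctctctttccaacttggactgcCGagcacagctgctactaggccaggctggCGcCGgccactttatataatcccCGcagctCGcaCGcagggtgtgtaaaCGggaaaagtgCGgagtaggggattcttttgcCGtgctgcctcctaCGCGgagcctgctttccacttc
The Hoxa3 stretch holds 8 CpGs and the Hoxb13 stretch 18. The Hoxd3 stretch holds 27, with an observed over expected CpG ratio of 0.879. These strongest bins thus range from CpG-poor to CpG-rich DNA.

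The next sequences are the 250 bases upstream of 5 RefSeq start sites (GRCm38.p6, written 5′ to 3′ on the gene's strand, CpGs in capitals), shown because 3 lay under a peak in both sexes, that of Hoxb8 in females only, and that of Hoxd4 in neither sex. Their positions are chr6:52260881-52261130 (minus strand) for Hoxa13, chr2:74667975-74668224 for Hoxd13, chr6:52227371-52227620 (minus strand) for Hoxa9, chr11:96281655-96281904 for Hoxb8 and chr2:74721728-74721977 for Hoxd4.
Hoxa13: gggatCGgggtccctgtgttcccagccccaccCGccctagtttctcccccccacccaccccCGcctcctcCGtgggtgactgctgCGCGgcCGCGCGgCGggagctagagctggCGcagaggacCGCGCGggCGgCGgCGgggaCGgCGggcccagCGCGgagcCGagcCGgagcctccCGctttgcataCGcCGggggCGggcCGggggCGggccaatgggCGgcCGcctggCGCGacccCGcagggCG
Hoxd13: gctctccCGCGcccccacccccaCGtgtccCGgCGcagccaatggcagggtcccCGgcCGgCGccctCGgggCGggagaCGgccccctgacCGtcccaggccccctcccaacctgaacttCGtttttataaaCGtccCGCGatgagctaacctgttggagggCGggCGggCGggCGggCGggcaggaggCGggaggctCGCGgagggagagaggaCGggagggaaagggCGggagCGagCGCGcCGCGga
Hoxa9: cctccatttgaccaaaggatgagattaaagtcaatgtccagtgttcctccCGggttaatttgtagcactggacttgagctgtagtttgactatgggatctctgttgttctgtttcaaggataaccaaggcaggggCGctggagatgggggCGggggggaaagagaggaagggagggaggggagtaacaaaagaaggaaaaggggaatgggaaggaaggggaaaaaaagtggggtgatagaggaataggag
Hoxb8: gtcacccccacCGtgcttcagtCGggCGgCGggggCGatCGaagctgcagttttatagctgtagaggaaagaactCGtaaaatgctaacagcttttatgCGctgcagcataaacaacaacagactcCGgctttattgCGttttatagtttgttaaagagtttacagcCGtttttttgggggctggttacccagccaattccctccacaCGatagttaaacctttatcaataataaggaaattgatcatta
Hoxd4: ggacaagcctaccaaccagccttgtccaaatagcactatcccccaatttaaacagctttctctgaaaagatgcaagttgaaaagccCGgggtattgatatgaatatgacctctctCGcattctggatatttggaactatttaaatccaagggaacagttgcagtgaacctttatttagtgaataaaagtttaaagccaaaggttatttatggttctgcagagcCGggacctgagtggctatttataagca
Hoxa13 and Hoxd13, which pattern the digits and the urogenital tract, hold 35 and 31 CpGs in this window. Hoxb8 holds 12. Hoxa9, a regulator of blood progenitors, and Hoxd4 hold 3 each, yet the former was under a peak and the latter was not. RefSeq gave such windows for 22 of the 39 genes.

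All 4 clusters lay under far more H3K9me3 peak sequence than the genome as a whole. From the start of the lowest to the end of the highest Hox gene (GENCODE M21), peaks covered 60.1% of the Hoxa cluster (chr6:52155590-52260880) in females and 58.9% in males. The Hoxd cluster (chr2:74668310-74765142) was covered to 46.7% in females and 45.5% in males. The Hoxb cluster (chr11:96194316-96368256) was covered to 42.5% and 42.4%, and the Hoxc cluster (chr15:102921103-103036852) to 38.8% and 40.8%. Peaks covered 8.10% of the genome in females and 8.27% in males, and 12.7% and 13.2% of the bases within protein-coding genes.

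The order Hoxa, Hoxd, Hoxb, Hoxc was the same in both sexes, whose peak sets were merged separately. Of all windows of 100 kb along the genome, 1.63% in females and 1.90% in males were covered to at least the extent of Hoxa, and 5.45% and 5.22% to at least that of Hoxc. The clusters held 16.1 to 21.6 peaks per 100 kb in females and 18.1 to 25.1 in males, against 5.73 and 6.22 in the genome. Coverage of this extent was not limited to Hox clusters, since 430 windows in females and 518 in males reached that of Hoxa.

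**Figure D1:**
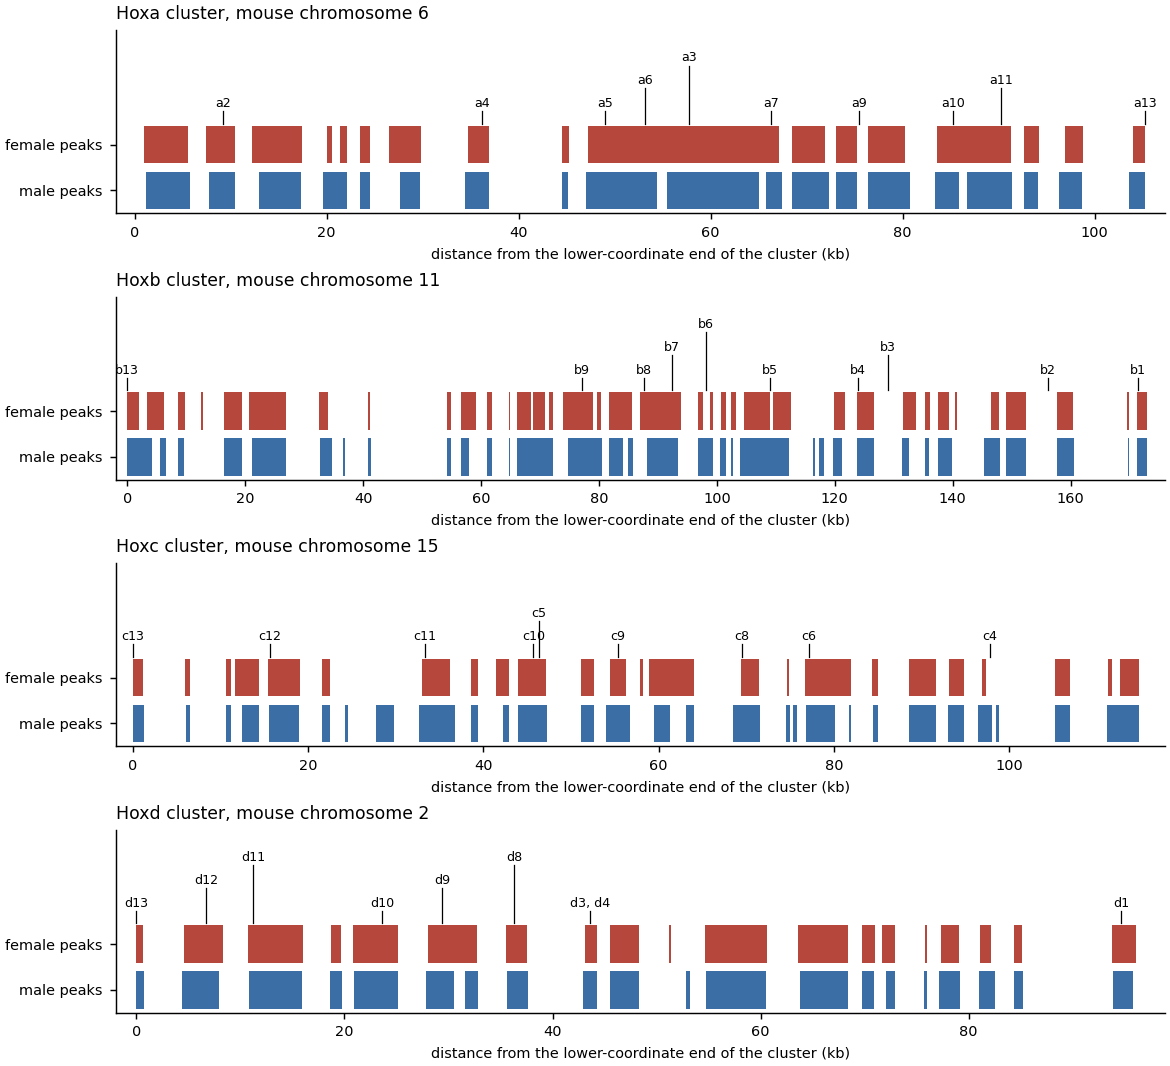
H3K9me3 peaks (filled blocks) in female (red) and male (blue) liver along the 4 Hox clusters, as distance in kb from the lower-coordinate end of the cluster, with a tick at the start of Hox genes. Blocks cover 60.1% of Hoxa but 38.8% of Hoxc in females, and the stretch from Hoxa5 to Hoxa7 is 1 block in females and several in males.

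The peaks were also wider than the median of all peaks. Hox peaks had a median width of 1606 bp in females and 1419 bp in males, against 781 and 745 bp for all peaks. Widths over 5 kb were found for 8 of 99 Hox peaks in females (8.08%, against 4.28% of all peaks) and 9 of 103 in males (8.74%, against 3.82%). This was not limited to Hox genes, since the median peak width by table was 1913 to 2114 bp for protocadherin genes and 1118 to 1415 bp for dispersed homeobox genes, against 1419 to 1962 bp for Hox genes. Peaks over 5 kb held 12.3% to 20% of the bins of Polycomb and trithorax genes and 8.14% to 11.2% of those of Hox genes. The widest of all Hox peaks, chr6:52202762-52222755 in females, spans 19994 bp over Hoxa5, Hoxa6, Hoxa3 and Hoxa7 start sites, and only 204 of all female peaks, or 0.131%, were at least as wide.

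In males the same stretch was split into peaks of 7357, 9503 and 1647 bp. The level of the single bin kept from the female peak was 3.72 in control females at both ages, 3.50 in MO and control females at 3 weeks and 3.77 at 8 weeks, per kb. The first and second of these levels are of 1 bin upstream of a Hoxa7 start (position -408 bp) and the last is of a bin 853 bp downstream of a Hoxa3 start. From the 9503 bp male peak a different bin was kept in each table, with 2.98 in control males (listed as Hoxa7), 2.84 at 3 weeks and 4.01 at 8 weeks (both listed as Hoxa3), so these levels are of different places.

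In the other clusters the widest peaks were 6896 bp in females over Hoxb8 and Hoxb7 and 8351 bp in males over Hoxb6 and Hoxb5, all genes active in the trunk. In Hoxc the widest were 5246 bp in females at Hoxc6 and 4184 bp in males at Hoxc11. In Hoxd they were 5980 and 5796 bp, both beginning close to 1 kb downstream of a Hoxd4 start and reaching over the microRNA gene Mir10b. The Hoxd4 peak had nearly the same ends in both sexes, chr2:74722974-74728953 in females and chr2:74723044-74728839 in males.

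Most Hox promoters lay under a peak, as did most CpG-rich promoters of other genes. A window from 250 bases upstream to 50 bases downstream of the outermost gene start (GENCODE M21) was overlapped by a peak for 34 of 39 Hox genes in females (87.2%) and 35 in males (89.7%). For all 21938 protein-coding genes this held for 52.1% and 53.7%. Among the 8029 windows that were CpG-rich (GC content of 55% or more and CpG ratio of 0.6 or more) it held for 78.1% and 81.8%, and among the 9126 CpG-poor windows (ratio below 0.4) for 29.0% in both sexes.

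All 15 CpG-rich Hox windows were overlapped in both sexes. Of the other 24, 19 were overlapped in females and 20 in males. The windows of Hoxa9, Hoxb2 and Hoxb3 were free of a peak in both sexes, those of Hoxb6 and Hoxc4 in females only and that of Hoxb8 in males only. Hoxb2 and Hoxb3 pattern the hindbrain, and Hoxb8 acts in the spinal cord and in myeloid cells.

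A gene with several starts can be judged differently at another of them. The Hoxa9 start of RefSeq, shown above, did lie under a peak in both sexes, and the Hoxd4 start of RefSeq did not, while the outermost GENCODE start of Hoxd4 coincides with that of Hoxd3 and lay under the same peak. With RefSeq starts, 23 of 24 Hox windows in females (95.8%) and 22 in males (91.7%) were overlapped, against 47.3% and 49.1% of 32851 windows of all genes. Hoxc10 and Hoxc5 likewise share 1 peak, so that the windows are not independent of each other.

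By cluster, all 9 Hoxd windows were overlapped in both sexes. In Hoxa 10 of 11 were overlapped in both sexes, in Hoxc 8 of 9 in females and 9 in males, and in Hoxb 7 of 10 in both. Dispersed homeobox genes, which encode related factors such as Pax, Lhx, Dlx and Nkx proteins outside the clusters, had 81 of 86 windows overlapped in both sexes (94.2%), more than the Hox genes. The ParaHox genes Cdx1, Cdx2, Cdx4, Gsx1, Gsx2 and Pdx1, which are the closest relatives of the Hox genes, had all 6 windows overlapped in females and 5 in males.

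**Figure D2:**
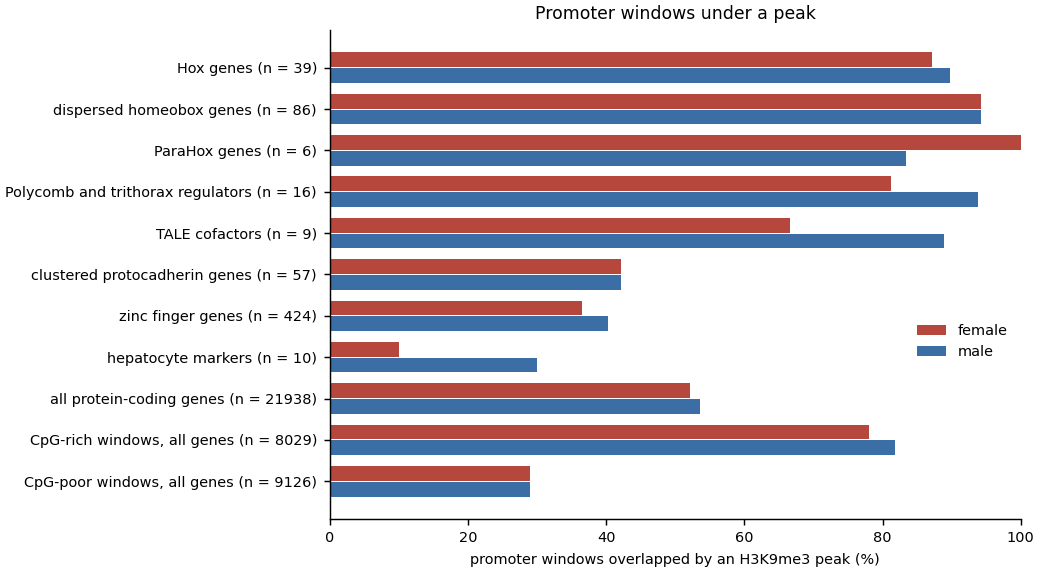
Share of promoter windows (300 bases around the outermost gene start) overlapped by an H3K9me3 peak, in percent, in females (red) and males (blue), with the number of windows of each gene set. Hox windows reach 87.2% and 89.7%, below the 94.2% of dispersed homeobox genes and above the 52.1% and 53.7% of all protein-coding genes.

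Regulators of Hox genes were covered as well. Of the Polycomb and trithorax genes (among them Ezh2, Eed, Suz12 and Kmt2a), 13 of 16 windows were overlapped in females and 15 in males. CpG-rich windows made up 75% of this set and 44.4% of the TALE set below. Over all genes 78.1% of the CpG-rich windows were overlapped in females and 81.8% in males. Of the TALE homeodomain genes (Pbx, Meis and Pknox), whose products bind DNA together with Hox proteins, 6 of 9 and 8 of 9 were overlapped. Zinc finger genes had 36.6% and 40.3% of 424 windows overlapped, and clustered protocadherin genes 42.1% of 57 in both sexes.

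Markers of hepatocytes, the main cell type of the liver, had 1 of 10 windows overlapped in females and 3 in males, and none of these windows was CpG-rich. The share over all CpG-poor windows was 29.0%, as given above. Albumin (Alb), Apoa2 and Fgb had no bin in any table. Genes of other liver cells, such as Kdr of endothelial cells and Krt19 of bile duct cells, had 5 of 12 windows overlapped in both sexes, and genes of other tissues (Myh6, Neurod1, Gfap, Ins1 and Ins2) 3 of 5 in females and 2 in males. The mark says nothing direct on expression, and the hepatocyte windows had a median CpG ratio of 0.231, against 0.745 for the Hox windows.

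Hox bins were spread unevenly over the genes. The tables held 80 to 95 Hox bins each and 33 to 35 of the 39 genes. Of the 22325 gene symbols with a bin in any table, each table held 19737 to 20795. Having a bin in a table thus does not set Hox genes apart. Hoxb had 29 to 35 bins a table, Hoxc 25 to 34, Hoxd 15 to 17 and Hoxa 6 to 11. Although Hoxa was covered most by peaks it had the fewest bins, and a wide peak counts only by 1 bin. Within Hoxa 7 to 11 bins a table were assigned to other transcripts, such as Hoxa11os, Hoxaas3, Mir196b and 5730596B20Rik, and within Hoxb likewise 7 to 11. Bins of any symbol within the cluster numbered 16 to 19 a table in Hoxa and 25 to 34 in Hoxb. The cause of the low count in Hoxa was not tested.

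A bin went to 28 genes in all 6 tables, namely 5 of 11 Hoxa genes (Hoxa3, Hoxa4, Hoxa9, Hoxa10 and Hoxa13), 7 of 10 Hoxb, 8 of 9 Hoxc and 8 of 9 Hoxd genes. The share of all genes with a bin in all 6 tables was not computed. Hoxb13, which acts in the prostate and distal gut, had most bins (9 to 12 a table), then Hoxc4 (7 to 11) and Hoxb1 (7 to 9), a gene of the hindbrain. These 3 genes stand at cluster ends, and bins beyond the cluster go to the gene at its end: 11 to 14 Hoxb, 6 to 12 Hoxc, up to 3 Hoxd and no Hoxa bins a table lay outside the cluster.

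Hoxa6 had a bin in 1 table, Hoxa5 and Hoxa11 in 2, Hoxc5 in 3, and Hoxa2 and Hoxb2 in 4. The count of tables thus follows which bin of a peak was kept, and a missing bin cannot be read as a missing mark.

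**Figure D3:**
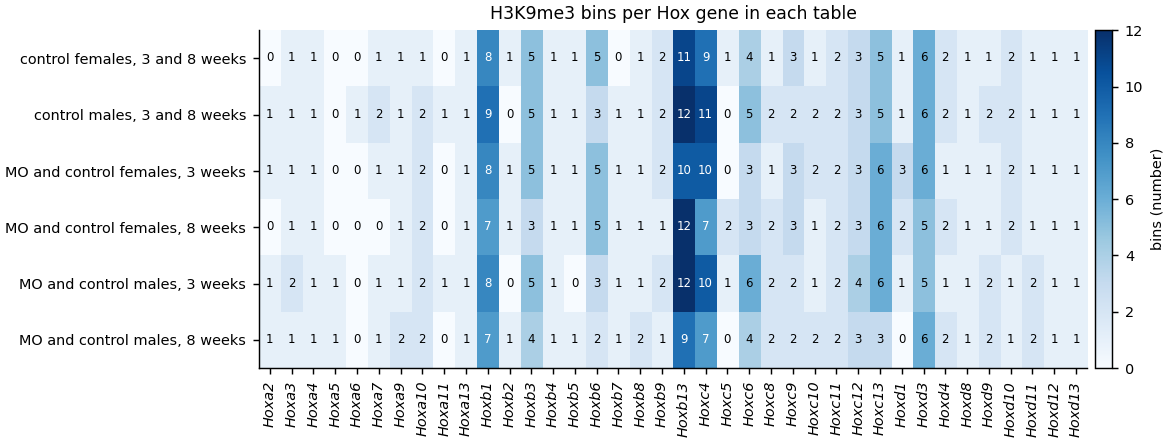
Number of H3K9me3 bins (colour and digits) assigned to 38 of the 39 Hox genes (columns) in each of the 6 tables (rows). Hoxb13, Hoxc4 and Hoxb1 at cluster ends hold 7 to 12 bins a table, while Hoxa6 has a bin in a single table.

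Hox bins were close to start sites, which the choice by nearest gene partly fixes in clusters with many starts. Between 57.1% and 63.8% of them lay within 3 kb of a start, against 19.7% to 22.9% of all bins, and 32.3% to 41.8% lay within 1 kb, against 12.1% to 16.2%. The share within 3 kb was 100% in Hoxa (53 of 53 bins over the 6 tables), 88.7% in Hoxd (86 of 97), 47.0% in Hoxb (94 of 200) and 46.4% in Hoxc (83 of 179). A bin of the same peak is counted again in each table, so these sums are not independent entries. Between 33.7% and 42.5% of the Hox bins of a table overlapped an exon of a Hox gene.

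The bins farthest from a start were all given to Hoxc13, a gene of hair and nail. They lie at chr15:102833174-102833484, 87619 bp upstream, at chr15:102842870-102843370, 77733 bp upstream in females, and at chr15:102843467-102843816, 77287 bp upstream in males. The last pair come from peaks that overlap between the sexes. Between 19 and 26 Hox bins a table were intergenic and 48 to 57 were annotated to a promoter.

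The level of the Hox bins was near that of all bins. Their median per kb was 3.70 in control females against 3.83 for all bins, and 3.31 against 3.34 in control males. In MO and control females it was 3.50 against 3.58 at 3 weeks and 3.8 against 3.83 at 8 weeks, and in MO and control males 3.20 against 3.25 and 3.8 against 3.94. The Hox median was thus lower by 0.028 to 0.14 in all 6 tables, but among bins of 500 bp or more it was higher by 0.0030 to 0.15 in 5 of them and lower only in control females.

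By level per kb, Hox bins were few among the strongest ones. Between 3.57% and 13.2% of them lay above the upper quartile of all bins of their table. A short length raises a level per kb, and this share was not computed among bins of 500 bp or more. By average log2 CPM, the highest Hox bin was exceeded by 0.869% of all bins in MO and control females at 3 weeks (Hoxc4, 3.20) and by 10.7% in MO and control females at 8 weeks (Hoxb5, 3.14), the extremes of the 6 tables. In MO and control males at 8 weeks it was 3.68, at Hoxc10, exceeded by 2.57%.

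**Figure D4:**
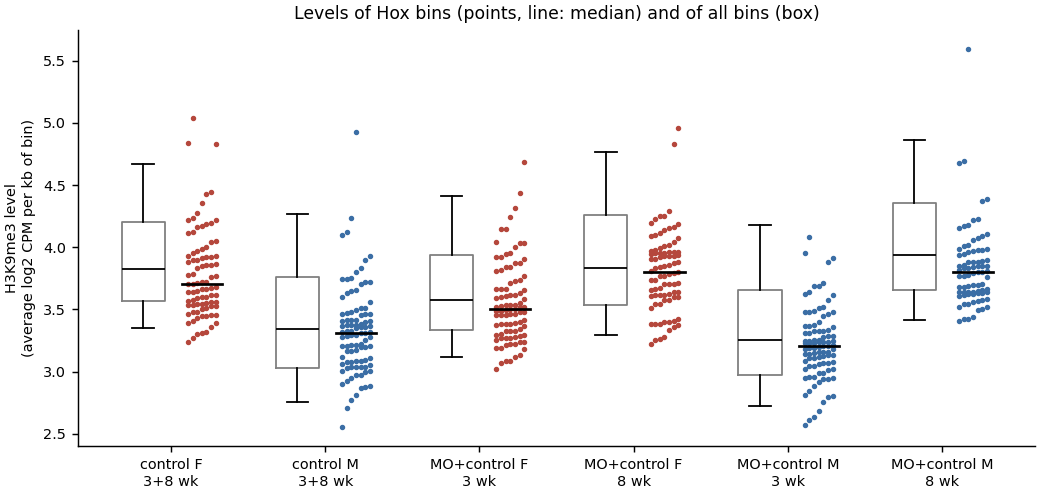
Level per kb (average log2 CPM per kb of bin) of Hox bins (points, females red, males blue, black line at the median) beside all bins of the table (box with quartiles, whiskers at the 5th and 95th percentile). Hox medians run from 3.2 to 3.8, each lower than that of all bins by 0.028 to 0.14 (higher in 5 tables among bins of 500 bp or more), and few Hox points reach the upper quartile.

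The strongest full-length bins of each cluster can be followed through the tables. They were picked for the highest level per kb in any table, so a level above the median of all bins is partly fixed by that choice. The Hoxb13 bin, chr11:96177528-96178028 in males and chr11:96177553-96178053 in females, lies about 16 kb upstream of Hoxb13 in an exon of another transcript. Its level per kb was 3.95 in control females, 3.90 in control males, 3.74 and 4.10 in MO and control females at 3 and 8 weeks, and 3.64 and 4.37 in the males. It was above the median of all bins in every table, and it is the only one of these 4 bins kept in all 6 tables at the same place within each sex.

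The Hoxc10 bin covers the start of Hoxc10, a gene of hindlimb motor neurons. Its level per kb was 3.93 in control males, 4.15 in MO and control females at 3 weeks (at a bin shifted by 1 base) and 4.68 in MO and control males at 8 weeks. In the other tables the bin kept from this peak lay 1 kb further on and went to Hoxc5, with 3.65 in control females, 3.66 in MO and control females at 8 weeks and 3.21 in MO and control males at 3 weeks. Each of the 3 bins at the Hoxc10 start was above the median of all bins of its table, which the choice by level partly fixes.

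The Hoxd3 bin (chr2:74740321-74740821, 702 bp into a Hoxd3 transcript) stood at 4.22 in MO and control males at 8 weeks and 3.6 in control males, and 396 bases next to it were kept at 3 weeks with 3.08. Females had 3.67 in controls, 3.46 at 3 weeks and 4.04 at 8 weeks in bins of the overlapping peak. The Hoxa3 bin (chr6:52211089-52211589) at 4.01 in MO and control males at 8 weeks was the highest of Hoxa. All 4 maxima fell in that table, whose median over all bins was the highest of the 6.

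When short bins are included, the highest level per kb of Hoxb, Hoxc and Hoxd belongs to a small peak, intergenic for Hoxb1 and Hoxc4 and annotated to a promoter for Hoxd3. They are 5.59 in a bin of 112 bp at chr11:96407835-96407946, 41577 bp downstream of the Hoxb1 start, 5.04 in a bin of 189 bp at chr2:74744111-74744299 by Hoxd3, and 4.92 in a bin of 99 bp at chr15:103082437-103082535, 48042 bp from Hoxc4. Division by so short a length weighs heavily in a level per kb. The average log2 CPM of these bins was 2.43, 2.64 and 1.59.

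Genes with a bin in all tables had median levels per kb as follows. In Hoxa they ran from 2.71 for Hoxa3 at its lowest table to 4.01 at its highest, with Hoxa4 at 3.14 to 3.96, Hoxa9 at 2.88 to 3.81, Hoxa10, a gene of the uterus, at 3.22 to 3.78 and Hoxa13 at 3.08 to 4.01. These ranges overlap each other.

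In Hoxb the table medians spanned 2.61 to 3.76 for Hoxb4, a gene of blood stem cells, and 3.22 to 4.05 for Hoxb1. Hoxb3 held 3.04 to 3.88, Hoxb6 3.05 to 3.93 and Hoxb9, a gene of the thoracic skeleton, 3.15 to 3.88. Hoxb8 held 3.21 to 3.96 and Hoxb13 3.28 to 3.82, the narrowest of the Hoxb genes with a bin in all 6 tables.

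In Hoxc the table medians of genes with a bin in all tables ran from 2.97 for Hoxc12 to 4.19 for Hoxc10, whose lowest table stood at 3.52, the highest lower end of these genes in the cluster. Hoxc4 held 3.23 to 3.85, Hoxc6 3.22 to 3.87, Hoxc8 3.07 to 3.93, Hoxc9 3.03 to 4.04, Hoxc11 3.29 to 3.82 and Hoxc13 3.05 to 3.85. In Hoxd they ran from 2.80 for Hoxd10 to 4.39 for Hoxd13, whose lowest table stood at 3.23. Hoxd11, a gene of the forearm, held 3.17 to 3.72 and Hoxd12 3.21 to 3.90. Hoxd3 held 3.08 to 4.04, Hoxd4 3.20 to 4.35, Hoxd8 3.02 to 3.77 and Hoxd9 3.24 to 3.90. Every one of the 28 genes thus had a table median between 2.61 and 4.39. That range may also reflect a separate scaling of the tables.

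By median, Hox bins were richer in CpG than all bins. They were also closer to start sites, as given above, and no comparison with bins equally near a start was made. The median CpG ratio of Hox bins was 0.469 to 0.549 by table, against 0.257 to 0.308 for all bins, and the interval of the Hox quartiles overlapped that of all bins. GC content was 54.8% to 57.6% against 53.5% to 55.3%. The median share of repeat-masked bases was 7.94% to 9.88% in Hox bins, against 12.2% to 13.2% in all bins, although among bins of 500 bp or more the difference turned to 0.399 percentage points higher in MO and control males at 8 weeks. The upper quartile was 13.1% to 16.7% against 39.7% to 49.7%, and it was also low in dispersed homeobox genes (17.1% to 19.3%) and protocadherin genes (12.0% to 21.6%). The clusters as a whole had CpG ratios of 0.477 for Hoxa, 0.349 for Hoxb, 0.357 for Hoxc and 0.460 for Hoxd, so that Hoxa and Hoxd, the more covered pair, were also the more CpG-rich pair, over 4 clusters.

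Other gene sets give a scale for this. Clustered protocadherin genes, a family of neuronal adhesion proteins known for this mark, had median levels per kb of 3.53 to 4.50, above all bins in every table, and CpG ratios of 0.441 to 0.533. Zinc finger genes had medians of 3.33 to 4.07, also above those of all bins in each table. TALE genes had medians of 3.16 to 3.89 and Polycomb and trithorax genes 3.13 to 3.81, below all bins in each table, and ParaHox genes 3.25 to 3.86, on either side of them. Dispersed homeobox genes, with 787 to 1203 bins a table, had medians of 3.14 to 3.82, below all bins in each table also without length correction, where the Hox median was above all bins in 4 tables. They had CpG ratios of 0.245 to 0.314, near those of all bins, and only 11.2% to 15.5% of their bins lay within 3 kb of a start, while 65.5% to 75.7% of the protocadherin bins did, more than of the Hox bins.

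Hox peaks were kept in more tables than peaks at large. Of the Hox peaks, 76 of 99 in females (76.8%) and 81 of 103 in males (78.6%) had a bin in all 3 tables of the sex, against 61.3% and 56.4% of all peaks. Among peaks over 2 to 5 kb wide it was 28 of 31 in females (90.3%, all peaks 70.7%) and 32 of 33 in males (97.0%, all peaks 73.5%). Among those of up to 500 bp it was 6 of 19 in females (all peaks 54.7%) and 6 of 15 in males (all peaks 46.7%), a lower share than over all peaks.

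The kept bin itself changed more often, in a comparison not matched by peak width. Of the Hox peaks in all 3 tables the same bin was listed for 39.5% in females, where all such peaks had 69.6%, and for 34.6% in males, where they had 63.5%. Hence 9 Hox peaks in females and 12 in males changed gene symbol between tables, as between Hoxa3 and Hoxa7. Only peaks over 500 bp were divided into bins, so the bin of a shorter peak cannot change. Hox peaks were wider by median, with 1606 against 781 bp in females and 1419 against 745 bp in males. The part of peak width in the share with the same bin was not tested. How the bin was chosen is not given in the sources used here, and its part in the differences below was not tested.

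The question of age was read from the tables that pool MO and control offspring at 3 and at 8 weeks, which share no library. In females 38 Hox bins had identical places in both tables, and their level was higher at 8 weeks by a median of 0.26 on the log2 scale, against 0.23 for all 76657 shared bins. In males 39 Hox bins were higher by 0.57, against 0.63 for all 69096 shared bins. The tables may have been scaled separately, which the sources do not state, so differences are given next as less the median of all shared bins.

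On that scale the Hox median was 0.034 in females, with 22 bins above and 16 below the median of all bins, and -0.066 in males, with 14 above and 25 below. Hox bins ran from -0.48 to 0.39 in females and from -0.53 to 0.51 in males. None of them left the central 95% of all shared bins, whose limits were -0.52 and 0.60 in females and -0.54 and 0.63 in males.

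The ends of the female range were a Hoxb6 bin at chr11:96296729-96297229, which went from 2.62 at 3 weeks to 2.36 at 8 weeks, and a Hoxd3 bin at chr2:74738526-74739026, from 2.23 to 2.84 (log2 CPM). In males they were a Hoxc11 bin at chr15:102959706-102960206, from 2.40 to 2.50, and a Hoxb3 bin at chr11:96340682-96341182, from 1.92 to 3.06. Different genes thus stood at the ends in each sex. Of 13 Hox bins that overlapped between the sexes and had both ages, 7 had the same sign and 6 the opposite one after the median was taken off.

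Among these 13, a Hoxc12 bin (chr15:102931689-102932189 in females) was above the median in both sexes, by 0.36 and 0.21, and a Hoxb13 bin (chr11:96170653-96171153) below it in both, by -0.28 and -0.21. A Hoxc10 bin (chr15:102963579-102963984) was at 0.27 in females and -0.44 in males, and a Hoxb3 bin (chr11:96325880-96326380) at 0.37 and -0.27. Over all bins the difference moved with GC content, with medians over 10 classes of GC content from 0.16 to 0.39 in females and from 0.55 to 0.86 in males, highest in the class richest in GC. Against bins of the same class the Hox median was 0.028 in females and -0.079 in males, and the part of GC content in single differences was not tested.

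**Figure D5:**
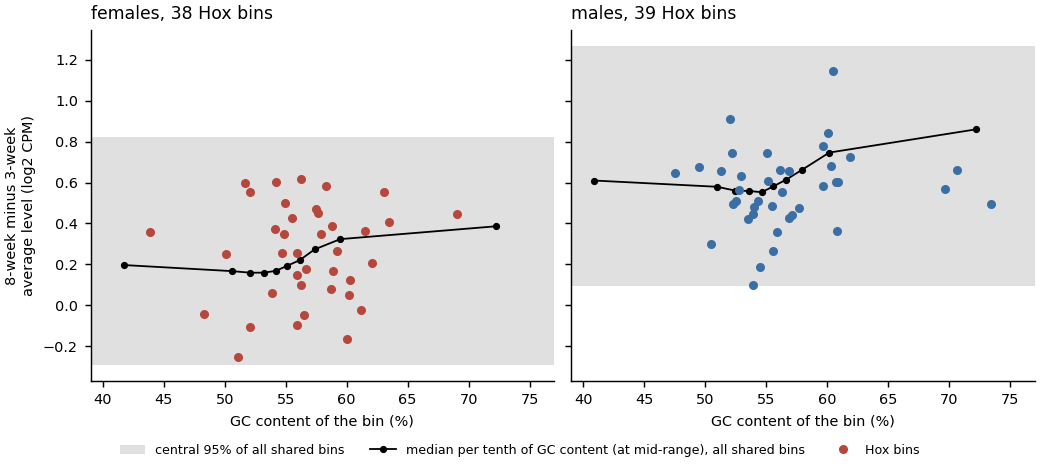
Difference of the average level at 8 weeks minus 3 weeks (log2 CPM, vertical) against the GC content of the bin (percent, horizontal) for 38 Hox bins in females (red) and 39 in males (blue), with the median of all shared bins per class of GC content (black line) and their central 95% (grey). All Hox points lie in the grey band, whose centre is 0.23 in females and 0.63 in males.

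The question of maternal obesity was put only indirectly here, to averages over 2 groups, since the authors' own comparisons of MO with control were not used. Where a bin was in all 3 tables of a sex, the MO level over both ages was taken as the sum of the linear averages at 3 and 8 weeks less that of the controls. In females the log2 ratio of MO to control had a median of -0.25 over 30 Hox bins and -0.24 over all 66676 bins. In males it was 0.43 over 28 Hox bins and 0.44 over all 60699 bins. The signs of the sexes were opposite for all bins alike, and the scaling of the tables and the diet cannot be told apart in them.

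Less the median of all bins, Hox bins ran from -0.48 to 0.43 in females, 15 above and 15 below, and from -0.43 to 0.31 in males, 13 above and 15 below. Taking off a median does not correct single bins for unequal scales. The values of single bins may therefore not be ratios of MO to control. The lowest in females were Hoxd12 at chr2:74672855 (-0.48), Hoxc13 at chr15:102910175 (-0.45) and Hoxc9 at chr15:102979002 (-0.37), and the highest was Hoxd10 at chr2:74687543 (0.43), named after their values were seen. In males the lowest was Hoxb1 at chr11:96372548 (-0.43) and the highest Hoxc4 at chr15:103058549 (0.31). No Hox bin in females and 1 in males, the Hoxb1 bin, left the central 95% of all bins, which was -0.52 to 0.46 and -0.41 to 0.40.

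Between the sexes, 30 pairs of Hox bins overlapped by at least 50% of the shorter bin at 3 weeks and 30 at 8 weeks. The female minus male level per kb had a median of 0.27 at 3 weeks against 0.30 for all autosomal pairs, and -0.094 against -0.10 at 8 weeks. Less the autosomal median, 13 pairs were above and 17 below at 3 weeks, and 15 above and 15 below at 8 weeks. The widest gaps were in pairs of unequal length, such as Hoxb1 at 8 weeks, 4.25 in a female bin of 285 bp and 5.59 in the male bin of 112 bp, where a level per kb is not comparable.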

How the data were processed

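The authors aligned H3K9me3 ChIP-seq reads to mm10/GRCm38 (GENCODE M25) with the Burrows-Wheeler Aligner, identified broad peaks with MACS2, merged peak sets by sex, counted reads in bins of peaks with featureCounts, annotated bins with ChIPseeker and compared groups with edgeR. The values used here are the authors' deposited average log2 CPM per bin, over the libraries of both groups of a table. The tables also hold fold changes, p-values and FDRs of the authors' comparisons, which were not used. Values and depth per library are not in the tables, so no test between groups was run on the averages.

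Here, levels per kb, places, peak widths, overlaps and differences of averages were computed with Python 3.11.15, pandas 2.3.3, numpy 2.4.6 and scipy 1.17.1 and sequence features with pysam 0.24.0, on the GRCm38 sequence with GENCODE M21 gene models; functions were tested on simulated data. No bin lay past a chromosome end. Named were, per cluster, the highest level per kb and the widest peak, genes with a bin in all 6 tables, bins at exons or within 1 kb of a start (as counts), and the 3 farthest bins. The members and gene lists were chosen with earlier results of these data known. Alternatives covered bin length, distance limits, overlap rules and medians of all bins. The values of 1 gene and the sequence of 1 bin are not reported here.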

Additional observations from a re-analysis of the deposited data

How the results depend on the processing

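Of 100 recalculations of 42 values, 63 stayed within the 95% binomial interval over bins (medians and shares) or within 1.5 times (counts) of the value reported and 37 did not. Restricting entries to 3 kb around a start left 316 of 529. Without length correction the Hox median less that of all bins became 0.11 in control males, 0.12 in MO and control males at 3 weeks and 0.022 at 8 weeks; with bins of 500 bp or more it became 0.15 in control males, 0.0030 in MO and control females at 3 weeks, 0.095 in MO and control females at 8 weeks, and 0.15 and 0.032 in MO and control males at 3 and 8 weeks, and within 3 kb of a start 0.021 in MO and control males at 3 weeks. Within 1 kb in place of 3 kb the share at promoters was 39.5%, 37.9%, 41.8%, 36.9%, 32.3% and 38.8% in the 6 tables. The repeat-masked share, Hox less all, moved from -2.89 to -0.798 percentage points with bins of 500 bp or more and to -4.68 over whole peaks in control females; with such bins it moved to -2.20 in control males and in MO and control females at 3 weeks, to -1.60 in MO and control females at 8 weeks, to -0.798 in MO and control males at 3 weeks and to 0.399 at 8 weeks (-5.12 over whole peaks). Hox bins shared by all tables of a sex were 43 in females (72 by whole peaks) and 48 in males (28 with 50% overlap, 28 with identical places, 75 by whole peaks); control females and males shared 44 bins (0 identical, 77 by whole peaks). Set against all shared bins, the age difference became 0.034 in females (0.028 within classes of GC content) and -0.066 in males (-0.079), the MO difference -0.0032 in females and -0.017 in males, and the sex difference at 3 weeks -0.033. Hox promoter windows under a peak were 95.8% in females with RefSeq starts. The promoter windows themselves, and the recalculations by GC content and RefSeq starts, were chosen after seeing the data. The cause of these shifts was not tested.

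No paired analysis was possible because the tables give no value per library; leaving out replicates could not be run for the same reason, and no Hox bin had identical places in both sexes, so that alternative for the sex difference gave no value.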

Other observations

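Transcripts and neighbours of the clusters carried bins too. Of 21 such genes all had a bin in at least 1 table and 15 had one in all 6, Hoxa11os, the antisense RNA of Hoxa11, among them with a bin within 1 kb of its start in every table. Within the Hoxb cluster 5 to 8 bins a table went to Gm53, and within Hoxc 1 to 3 went to Hotair, a long noncoding RNA. Gsx2, a ParaHox gene of the forebrain, was the only 1 of the 6 ParaHox genes with a bin within 1 kb of its start in all 6 tables, while 13 of 39 Hox genes had this. So did 7 of 9 TALE genes, 7 of 16 Polycomb and trithorax genes and 7 of the 21 neighbours and transcripts. Of the markers it was 1 of 10 for hepatocytes, 3 of 12 for other liver cells and 3 of 5 for other tissues. The share over all genes was not computed. These are counts of kept bins and were not tested.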
